A study of Homo sapiens with 4 samples.

Results

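The genes of glycolysis and of the response to low oxygen were examined as a set of 39 genes, matched by symbol to the rows of a table of 40205 genes from 2 human glioblastoma cell lines. The set holds glucose and lactate transporters, the enzymes from hexokinase to lactate dehydrogenase with their regulators, the subunits and hydroxylases of the hypoxia-inducible factors (HIF), and genes that HIF is known to activate. All 39 are in the table, and 38 entered the tests, with an RPKM of 1 or more in 1 library or several. ALDOC did not. RPKM is the number of reads scaled to the length of the gene model and the size of the library. Levels are set beside each other between genes and libraries within the limits of scaling and shared sequence given below.

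The 4 groups, with 1 poly(A) RNA library each, combined 2 lines and 2 hairpins. U87MG and U251 cells, grown in DMEM with fetal bovine serum, were infected with a lentivirus carrying either the control hairpin sh-NC or the hairpin sh-SRSF1 against the splicing factor SRSF1, and were kept under puromycin until stable. The label WT therefore stands for cells with the control hairpin, and all 4 groups share infection and drug selection. Low oxygen is not among the treatments the labels name. Because every group is 1 library, no contrast inside a line could be checked on replicates. Comparisons across both arms or both lines rest on 2 libraries each. The spread behind a p-value is how far the difference between knockdown and control varies between the 2 lines, moderated by the variance shared across genes. No replicate of a group measures technical or culture variation, and separate cultures are not stated.

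The libraries held 25099799 to 27953878 reads, and 1 read in a gene model of 1 kilobase was worth 0.0358 to 0.0398 RPKM. SRSF1 was at 88.3 RPKM in U87MG control cells, 14.6 in U87MG knockdown cells, 109 in U251 control cells and 15.8 in U251 knockdown cells (limma estimate for knockdown minus control -2.62 ± 0.16, adjusted p = 0.0022), so the labels of the arms matched the targeted gene. Of 10 astroglial and neural progenitor markers AQP4 was at 0 in all 4 libraries and SLC1A3 at 12.8 to 34.2 RPKM, and GFAP reached at most 1.47 RPKM, in the U251 control, while VIM was at 1675 and 1158 RPKM in U87MG, next to 1341 and 1065 RPKM in U251. SOX2 was at 47.9 and 49.3 RPKM in U251 and at 0.121 and 0.046 RPKM in U87MG. OLIG2 had the reverse order, with 0.936 and 2.46 RPKM in U87MG and at most 0.0263 RPKM in U251. Of the leukocyte markers CD3E was at 0 and PTPRC reached at most 0.0213 RPKM, and their summed level of 62.6 and 111 RPKM in U87MG and 8.59 and 10.8 RPKM in U251 was nearly all CD68. The 4 endothelial markers summed to 2.5 to 8.18 RPKM.

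Glycolysis splits glucose into pyruvate in the cytosol. Lactate dehydrogenase then reduces pyruvate to lactate, which monocarboxylate transporters carry out of the cell together with a proton, and pyruvate dehydrogenase kinases inactivate the enzyme that turns pyruvate into acetyl-CoA in the mitochondrion. When oxygen is low, the HIF alpha subunits are no longer hydroxylated and degraded, pair with ARNT and bind short elements with the core ACGTG or GCGTG near many of these genes. Glioblastoma is known for high glycolysis in the presence of oxygen and for hypoxic, necrotic regions.

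The sequences shown here are the promoter windows of 2 pairs of related enzymes whose members differed most in the results below: LDHA and LDHB, the muscle-type and heart-type subunits of lactate dehydrogenase, and CA9 and CA12, membrane carbonic anhydrases that help export acid. Each is the RefSeq window from 250 bases before to 50 bases after an annotated start on GRCh38.p14, written 5′ to 3′ in the direction of the gene, with ACGTG or GCGTG on either strand in capitals. The windows lie at chr11:18394313-18394612, forward strand (LDHA), chr12:21657793-21658092, reverse strand (LDHB), chr9:35673678-35673977, forward strand (CA9) and chr15:63381797-63382096, reverse strand (CA12).
LDHA: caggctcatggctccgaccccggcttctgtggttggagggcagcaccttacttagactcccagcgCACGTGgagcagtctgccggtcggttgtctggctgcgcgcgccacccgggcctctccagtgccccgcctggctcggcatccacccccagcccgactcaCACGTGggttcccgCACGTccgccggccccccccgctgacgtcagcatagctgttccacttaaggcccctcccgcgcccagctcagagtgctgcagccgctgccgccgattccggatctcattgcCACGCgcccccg
LDHB: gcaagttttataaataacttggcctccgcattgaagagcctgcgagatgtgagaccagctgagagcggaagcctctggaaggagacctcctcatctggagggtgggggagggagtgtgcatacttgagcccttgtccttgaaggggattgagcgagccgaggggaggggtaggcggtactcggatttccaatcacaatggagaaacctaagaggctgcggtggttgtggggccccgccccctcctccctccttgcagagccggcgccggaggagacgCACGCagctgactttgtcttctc
CA9: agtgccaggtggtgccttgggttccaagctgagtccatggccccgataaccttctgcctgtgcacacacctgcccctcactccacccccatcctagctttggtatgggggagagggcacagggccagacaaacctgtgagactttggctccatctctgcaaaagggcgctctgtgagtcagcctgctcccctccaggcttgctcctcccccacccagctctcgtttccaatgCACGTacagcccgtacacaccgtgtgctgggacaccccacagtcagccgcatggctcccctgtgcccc
CA12: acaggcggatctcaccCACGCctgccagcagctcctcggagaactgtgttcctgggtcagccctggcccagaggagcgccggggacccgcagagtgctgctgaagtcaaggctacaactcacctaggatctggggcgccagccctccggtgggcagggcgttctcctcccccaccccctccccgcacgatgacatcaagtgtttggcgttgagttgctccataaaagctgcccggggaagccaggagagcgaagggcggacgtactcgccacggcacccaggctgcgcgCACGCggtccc

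LDHA has 2 windows in the RefSeq table, of which the one with ACGTG is shown and the other holds no ACGTG, while LDHB, CA9 and CA12 have 1 each. The LDHA window shown holds ACGTG at 3 places, 2 of them within CACGTG, which reads the same on both strands and was counted as 1 place, and GCGTG at 1 place. CA9 holds ACGTG at 1 place just before its start. LDHB holds only GCGTG, at 1 place, and CA12 only GCGTG, at 2 places. Of the 39 genes, 34 matched the RefSeq table, with 62 windows, some of which overlap. ACGTG occurred in 24 of these windows (38.7%), against 21.4% of all 35116 windows, and GCGTG in 41.9%, against 36.5%. Windows with ACGTG at 3 or more places were those of LDHA and PGK1 among the members and made up 0.487% of all windows. SLC2A3, SLC16A1, VEGFA, BNIP3L and NDRG1 were not analysed here for promoter motifs. A match is a string of letters and not evidence of binding.

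The first comparison asked how the lines differ in these genes. Tested across both arms with limma on log2(RPKM + 1), 16 of 38 members (42.1%) were higher in U87MG and 14 (36.8%) were lower (Benjamini-Hochberg adjusted p under 0.05). Over all 16098 genes tested the shares were 21.6% and 27%, so the members' share was above the background, by less in the lower direction. Genes of a like level were not compared, so a share that depends on level was not tested. Both U87MG libraries lay above both U251 libraries in 18 members (47.4%, background 31.5%) and below both in 16 (42.1%, background 37%). Between the controls alone, 8 members were at least 2-fold higher in U87MG (21.1%, background 9.48%) and 9 at least 2-fold lower (23.7%, background 12.1%). In bulk RNA, fewer cells expressing a gene and less RNA per cell cannot be told apart. The plot of levels shows every member in every library.

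**Figure D1:**
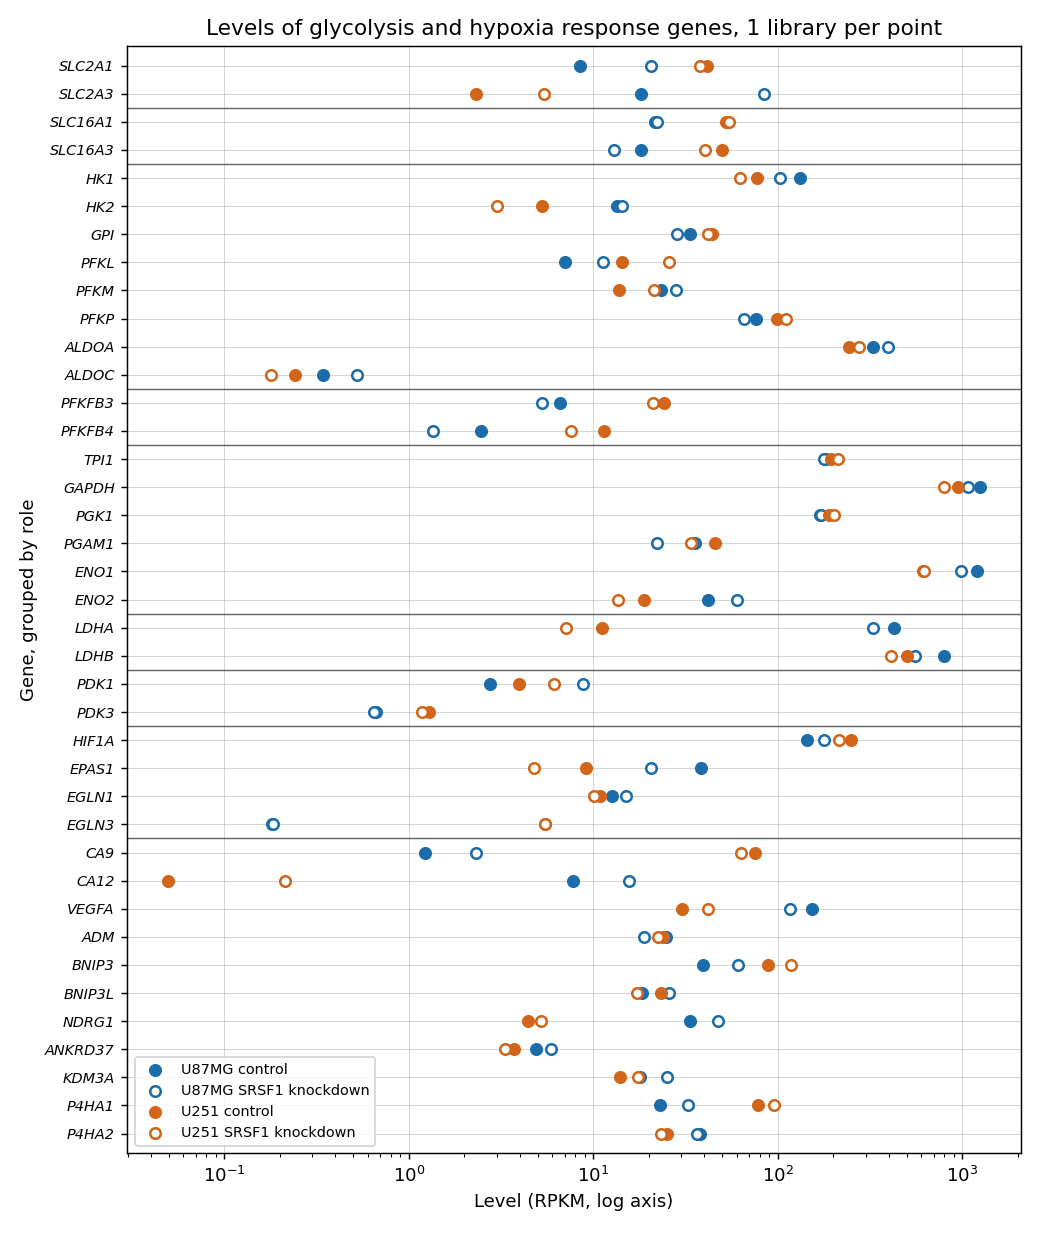
RPKM of each of the 39 genes on a log axis, grouped by role, with U87MG in blue and U251 in orange, the control libraries filled and the SRSF1 knockdown libraries open, 1 library per point. CA12 and LDHA lie far higher in both U87MG libraries and CA9 in both U251 libraries, while TPI1 and PGK1 nearly coincide in all 4 libraries.

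Of the lactate dehydrogenase subunits, LDHA had the largest estimate among the members on the log2(RPKM + 1) scale. By the ratio of reads, and with a pseudocount of 0.1, CA12 differed more. LDHA, whose subunit favours the conversion of pyruvate to lactate, was at 424 RPKM in U87MG control cells, 327 in U87MG knockdown cells, 11.1 in U251 control cells and 7.14 in U251 knockdown cells. Both U87MG libraries were far above both U251 libraries, and among the 40205 rows LDHA ranked 122 and 192 in U87MG and 6101 and 7742 in U251. By reads the U87MG control was at 38.2 times (95% interval 35.3 to 41.3) the U251 control, an exact Clopper-Pearson interval that, like the others below, covers counting error only. The estimate over both arms was 5.23 ± 0.16 log2 units (adjusted p = 7.5e-07). That LDHA differs strongly between the lines was known from these data before the test. LDHB, whose subunit favours the reverse reaction, was at 792 (control) and 553 (knockdown) RPKM in U87MG, next to 499.8 and 408 for U251, higher in U87MG by 0.55 ± 0.14 (adjusted p = 0.013). LDHA thus made up 34.9% and 37.1% of the summed LDHA and LDHB RPKM in U87MG control and knockdown cells, and 2.18% and 1.72% in U251. The LDHB transcript was the main one in all 4 libraries.

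LDHA has processed pseudogenes to which its reads could have been assigned, and 19.9% of the 31-base words of its longest GENCODE 29 transcript occur in another annotated gene. The rows of the most abundant copies were also far higher in U87MG. LDHAP4, the most abundant of 6, was at 113 and 81.6 RPKM in U87MG, next to 2.24 and 1.76 RPKM in U251. LDHA summed with its 6 copies came to 611 and 463 RPKM in U87MG, next to 14.6 and 9.7 RPKM in U251, and LDHB with its 3 copies to 920.1 and 645 against 578 and 478 RPKM. LDHA lies on chromosome 11 from 18394388 to 18408425, forward strand, and LDHB on chromosome 12 from 21635342 to 21757857, reverse strand (GRCh38, GENCODE 29; the deposited values used hg19). For LDHB 61.6% of the words recur in other annotated genes, mostly in AC010197.2, so its level may be less certain than that of LDHA.

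**Figure D2:**
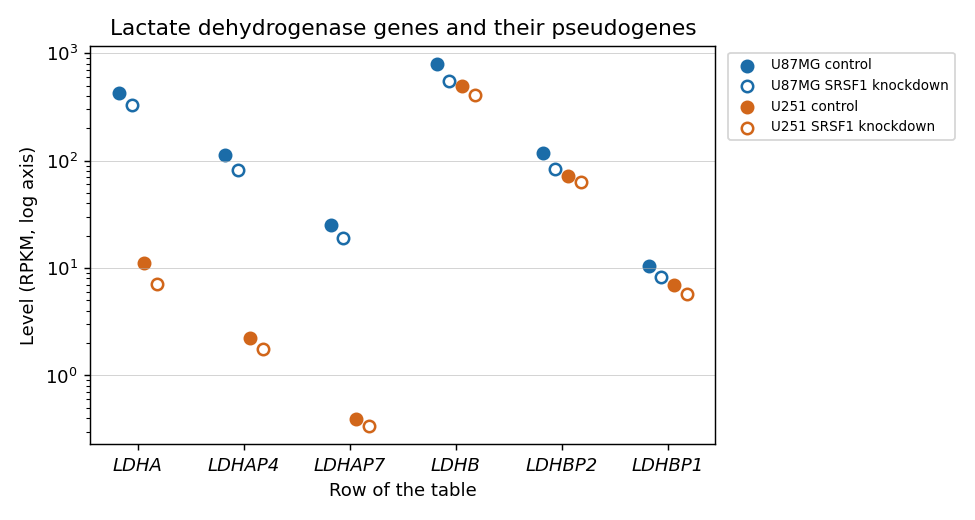
RPKM on a log axis of LDHA, LDHB and the 2 most abundant pseudogene rows of each, colours and fills as in the plot of levels. LDHA and its pseudogenes sit far lower in both U251 libraries than in both U87MG libraries, whereas LDHB and its pseudogenes differ much less.

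The most abundant glucose transporter transcript differed between the lines. SLC2A1, encoding GLUT1, the widely expressed basal transporter, was at 8.53 RPKM in U87MG control cells, 20.5 in U87MG knockdown cells, 41.2 in U251 control cells and 37.6 in U251 knockdown cells. Both U251 libraries were above both U87MG libraries (U87MG minus U251 -1.50 ± 0.28, adjusted p = 0.0039). SLC2A3, encoding GLUT3, the high-affinity transporter typical of neurons, was at 18.2 (control) and 84.2 (knockdown) RPKM in U87MG, next to 2.33 and 5.4 for U251, the opposite order (3.13 ± 0.27, adjusted p = 8.1e-05). SLC2A1 made up 31.9% and 19.6% of the summed RPKM of this pair in the U87MG control and knockdown, and 94.7% and 87.5% in U251. A share of 42% of the words of SLC2A3 recurs in other genes, mostly in its neighbour SLC2A14, which was at 0.693 and 4.26 RPKM in U87MG, next to 0.083 and 0.289 RPKM in U251. The pseudogene row SLC2A3P1 had the reverse order of lines, with 8.79 and 10.6 RPKM in U87MG and 17.3 and 18.4 RPKM in U251.

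The lactate transporters were both lower in U87MG, the line with more LDHA. SLC16A1, encoding MCT1, which carries lactate in either direction, was at 21.7 (control) and 22.3 (knockdown) RPKM in U87MG, next to 52.4 and 54.6 for U251 (-1.25 ± 0.16, adjusted p = 6.2e-04). SLC16A3, encoding the exporter MCT4, was at 18.2 (control) and 12.9 (knockdown) RPKM in U87MG, next to 49.7 and 40.3 for U251 (-1.48 ± 0.16, adjusted p = 2.9e-04). Neither pair of U87MG libraries overlapped the U251 pair, and SLC16A1 made up 51.4% to 63.3% of the summed RPKM of the 2 genes in every library.

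**Figure D3:**
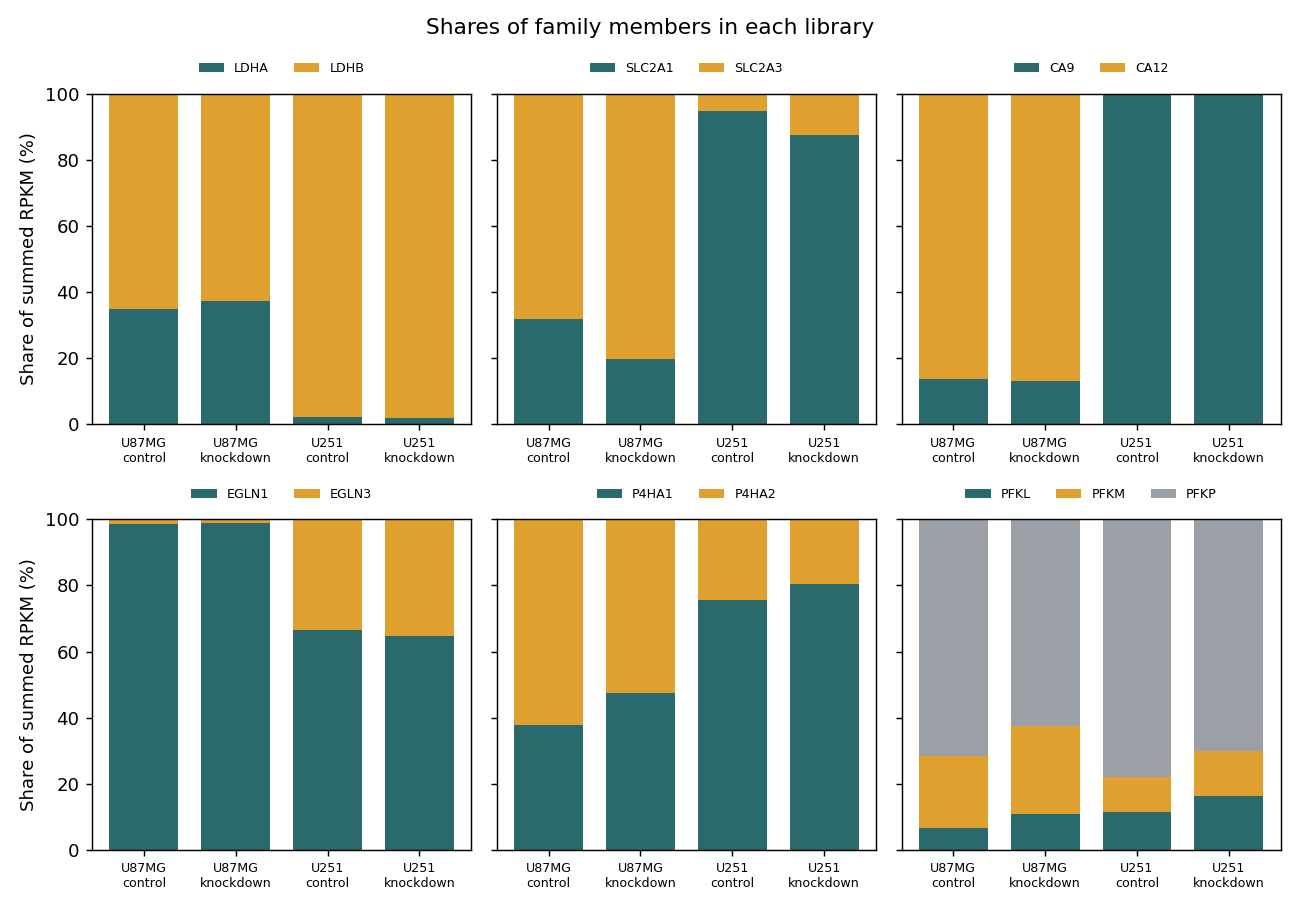
Stacked bars of the percentage each gene contributes to the summed RPKM of its family in each of the 4 libraries, for lactate dehydrogenase, glucose transporters, carbonic anhydrases, HIF prolyl hydroxylases, collagen prolyl hydroxylases and phosphofructokinase. The majority member differs between the lines for SLC2A1 and SLC2A3, for CA9 and CA12 and for P4HA1 and P4HA2, and within a line it is the same in control and knockdown in each family shown.

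In the upper part of the pathway, which consumes ATP, the isoenzymes differed in direction. HK1, the widely expressed hexokinase, was at 132 (control) and 102 (knockdown) RPKM in U87MG, next to 76.9 and 62.8 for U251, and HK2, the inducible form bound to mitochondria in many tumours, at 13.5 (control) and 14.3 (knockdown) RPKM in U87MG, next to 5.29 and 3.01 for U251. Both were higher in U87MG (0.73 ± 0.16 and 1.57 ± 0.21, adjusted p = 0.0063 and 6.9e-04), and HK1 was the more abundant by far in each library. Among the subunits of phosphofructokinase, the committed step, PFKP (platelet type) was at 75.9 (control) and 65.3 (knockdown) RPKM in U87MG, next to 98.8 and 111 for U251 and supplied most of the summed RPKM. PFKP and PFKL (liver type) were lower in U87MG (-0.56 ± 0.17 and -1.03 ± 0.17), and PFKM (muscle type) was higher (0.55 ± 0.17), with adjusted p of 0.026, 0.0018 and 0.032. GPI, the isomerase of the second step, was lower (-0.47 ± 0.16, adjusted p = 0.045).

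PFKFB3 and PFKFB4 make and degrade fructose 2,6-bisphosphate, the activator of phosphofructokinase. PFKFB3 was at 6.6 (control) and 5.29 (knockdown) RPKM in U87MG, next to 24.3 and 21.1 for U251, and PFKFB4 at 2.48 (control) and 1.35 (knockdown) RPKM in U87MG, next to 11.4 and 7.62 for U251. Both were lower in U87MG without overlap, with estimates of -1.78 ± 0.16 and -1.86 ± 0.16 (adjusted p = 1.1e-04 and 9.0e-05). ALDOA, the main aldolase, was at 328 (control) and 396 (knockdown) RPKM in U87MG, next to 244 and 276 for U251 (0.47 ± 0.14, adjusted p = 0.026). ALDOC, the aldolase of brain, had 18 and 27 reads in U87MG and 12 and 10 in U251, at most 0.524 RPKM. The ALDOA value may be uncertain, since 88.2% of its words recur in another annotated gene, AC093512.2. Gene models that overlap at the same place were not set apart in this measure.

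The lower, ATP-yielding part of the pathway held the most abundant members, and the direction of its differences was mixed. GAPDH was at 1245 (control) and 1071 (knockdown) RPKM in U87MG, next to 951 and 797 for U251, and ENO1, the main enolase, at 1204 (control) and 984 (knockdown) RPKM in U87MG, next to 614 and 622 for U251. GAPDH was higher in U87MG by 0.41 ± 0.12, ENO1 by 0.82 ± 0.14 and ENO2, the neuronal enolase, by 1.59 ± 0.23 (adjusted p = 0.029, 0.0024 and 0.0012). PGAM1, the mutase, was lower (-0.47 ± 0.17, adjusted p = 0.047). TPI1 ranged from 177 to 213 RPKM and PGK1, the first ATP-forming kinase, from 169.8 to 201 RPKM. Neither passed the test (-0.17 ± 0.15 and -0.19 ± 0.15), and their U87MG libraries lay just below those of U251. For TPI1 the pseudogene row TPI1P1, at 289 and 273 RPKM in U87MG and 275 and 339 RPKM in U251, was higher than the gene itself. Quantile normalization took the differences of ALDOA, GAPDH and LDHB down to 0.18, 0.16 and 0.16 log2 units, with adjusted p of 0.30, 0.32 and 0.36. It called TPI1 and PGK1 lower in U87MG (-0.40 each, adjusted p = 0.044 and 0.042), so these calls depend on the scaling. Without the filter, the arm term or the trend, the calls of ALDOA (adjusted p = 0.11, 0.11 and 0.056) and GAPDH (0.26, 0.14 and 0.087) were also lost. That of LDHB was also lost without the filter (0.13) or the arm term (0.14). The calls of PGAM1 and, above, GPI were each lost under 4 of the 8 alternatives, with adjusted p of 0.061 to 0.28 for PGAM1 and 0.058 to 0.11 for GPI.

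The HIF alpha subunits had opposite orders. HIF1A was at 144 (control) and 178 (knockdown) RPKM in U87MG, next to 250.4 and 214 for U251, lower in U87MG (-0.53 ± 0.17, adjusted p = 0.037), and was abundant in all libraries. EPAS1, encoding HIF-2 alpha, was at 38.2 (control) and 20.5 (knockdown) RPKM in U87MG, next to 9.1 and 4.77 for U251, higher in U87MG (1.93 ± 0.16, adjusted p = 7.1e-05). Messenger levels do not show the protein, which oxygen controls after translation. Of the prolyl hydroxylases that mark HIF alpha for degradation, EGLN1 was at 12.7 (control) and 15 (knockdown) RPKM in U87MG, next to 10.8 and 10.1 for U251 and missed the threshold (adjusted p = 0.11). EGLN3, itself a HIF target, was at 0.182 (control) and 0.184 (knockdown) RPKM in U87MG, next to 5.47 and 5.47 for U251, with 13 reads in each U87MG library against 374 and 416 in U251 (-2.45 ± 0.19, adjusted p = 4.1e-05). The call for HIF1A was lost under 5 of the 8 alternatives, with adjusted p of 0.052 to 0.16.

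Known HIF targets did not share a direction between the lines. Of the 11 not counted in another class, 5 were higher in U87MG and 3 lower, beside 21.6% and 27% of all genes tested. CA9 was at 1.22 RPKM in U87MG control cells, 2.33 in U87MG knockdown cells, 74.9 in U251 control cells and 62.8 in U251 knockdown cells, or 50 and 94 reads against 2927 and 2733 (-4.68 ± 0.22, adjusted p = 4.6e-06). CA12 was at 7.74 (control) and 15.7 (knockdown) RPKM in U87MG, next to 0.0496 and 0.214 for U251, or 817 and 1636 reads against 5 and 24 (3.42 ± 0.22, adjusted p = 1.7e-05). CA9 and CA12 thus had opposite orders of the lines, and CA9 made up 13.6% and 12.9% of their summed RPKM in U87MG and 99.9% and 99.7% in U251. By reads the U87MG control was at 0.0163 times (95% interval 0.0121 to 0.0216) the U251 control for CA9 and at 156 times (95% interval 66.6 to 482) for CA12, whose interval is wide because the U251 control held 5 reads.

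VEGFA, the angiogenic growth factor, was at 154 (control) and 116 (knockdown) RPKM in U87MG, next to 30.1 and 41.8 for U251 (1.89 ± 0.22, adjusted p = 3.8e-04). NDRG1, a stress-responsive regulator of growth and trafficking, was at 33.4 (control) and 47.6 (knockdown) RPKM in U87MG, next to 4.41 and 5.19 for U251 (2.82 ± 0.17, adjusted p = 1.4e-05). In these 2 genes both U87MG libraries were above both U251 libraries. Lower in U87MG were BNIP3, a mitophagy receptor, at 39.4 (control) and 60.6 (knockdown) RPKM in U87MG, next to 88.1 and 118 for U251 (-1.05 ± 0.16, adjusted p = 0.0014), and P4HA1, a collagen prolyl hydroxylase subunit, at 23 (control) and 32.6 (knockdown) RPKM in U87MG, next to 78.2 and 95.2 for U251 (-1.62 ± 0.16, adjusted p = 1.8e-04). P4HA2, its paralog, was higher in U87MG (0.60 ± 0.16, adjusted p = 0.018), so P4HA1 made up 37.8% of the pair in the U87MG control and 75.7% in the U251 control. ANKRD37, an ankyrin-repeat protein, was higher by 0.50 ± 0.18 (adjusted p = 0.047), a call lost under 4 of the 8 alternatives (adjusted p of 0.058 to 0.16). KDM3A, a histone H3 lysine demethylase, BNIP3L, the paralog of BNIP3, and ADM, the vasodilator adrenomedullin, had estimates of 0.42 ± 0.17, 0.12 ± 0.23 and -0.10 ± 0.17 and were not called. PDK1 and PDK3 were not called either (0.03 ± 0.23 and -0.43 ± 0.21).

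**Figure D4:**
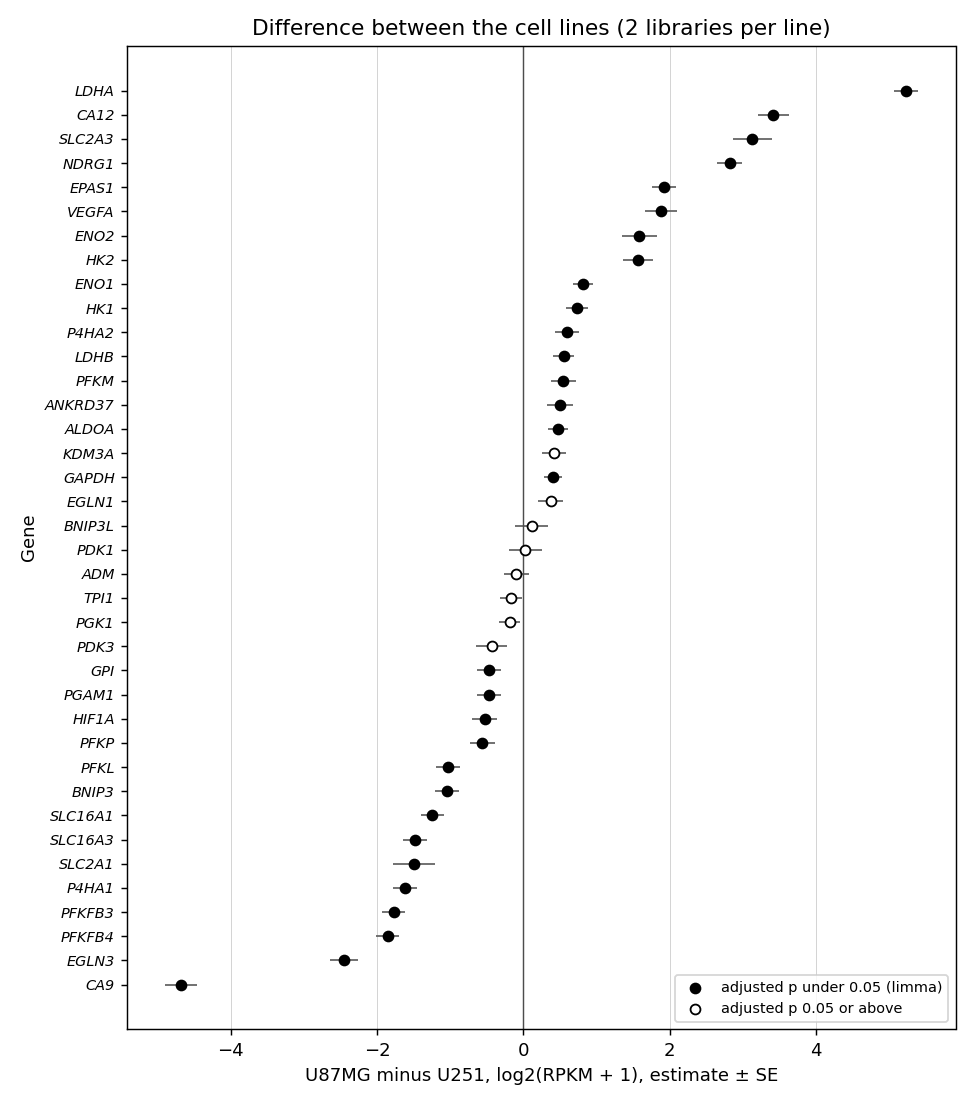
Difference between the lines for each of the 38 tested genes, as the limma estimate of U87MG minus U251 on the log2(RPKM + 1) scale with its SE, from 2 libraries per line. Filled points passed an adjusted p of 0.05, and they extend from -4.68 for CA9 to 5.23 for LDHA.

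The second comparison asked how the SRSF1 hairpin changed these genes. Across the lines limma called 1 of 38 members higher and 1 lower in the knockdown, from 2 libraries per arm with a block for cell line. Over all genes tested the shares were 1.16% and 2.61%, so the members' count was near the background. At an unadjusted p under 0.05 there were 8 higher members (21.1%, background 8.29%) and 5 lower (13.2%, background 12.8%). At 2-fold on the log2(RPKM + 1) scale, 3 members (7.89%) were higher in the U87MG knockdown (background 2.33%) and none was lower (background 3.58%). None reached 2-fold in U251, where the background was 1.17% higher and 1.71% lower. In both lines 12 members were above their control (31.6%, background 29.3%) and 13 below (34.2%, background 36.5%). The lines had ratios of opposite sign in 13 members (34.2%, background 31.8%). In 10 of these (26.3% of members, background 8.44%) both counting intervals excluded no change, a share that depends on the reads of a gene. The median ratio of the members was 0.03 in U87MG and -0.08 in U251, beside -0.05 and -0.0037 over all genes tested.

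SLC2A3 rose. Its level went from 18.2 to 84.2 RPKM (U87MG) and, for U251, from 2.33 to 5.4 RPKM, and by reads the knockdown was at 4.63 times (95% interval 4.31 to 4.97) the control in U87MG and at 2.32 times (95% interval 1.86 to 2.9) in U251. The limma estimate was 1.55 ± 0.27 (adjusted p = 0.029). SLC2A14, which shares much of its sequence, was also higher in both knockdown libraries at the low levels given above, and reads of the 2 genes cannot be told apart everywhere. SLC2A3 summed with its 3 named pseudogene rows came to 27.4 and 96.1 RPKM in the control and knockdown of U87MG but to 19.7 and 23.9 RPKM in those of U251, so in U251 the sum differed far less between the arms than SLC2A3 alone, and the controls of the lines differed less too. SLC2A1 had ratios of 1.18 (U87MG) and -0.13 (U251) and was not called (0.52 ± 0.28, adjusted p = 0.34). The U87MG knockdown was thus the highest library for SLC2A3, and its SLC2A1 level still lay below both U251 libraries.

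EPAS1 fell by a like amount in each line, from 38.2 to 20.5 RPKM (U87MG) and, for U251, from 9.1 to 4.77 RPKM. By reads the knockdown was at 0.537 times (95% interval 0.513 to 0.563) the control in U87MG and at 0.524 times (95% interval 0.477 to 0.576) in U251. The limma estimate was -0.84 ± 0.16 (adjusted p = 0.038), and no 31-base word of EPAS1 recurs in another annotated gene. HIF1A had ratios of 0.30 (U87MG) and -0.22 (U251), so HIF1A made up 79% of the summed HIF1A and EPAS1 RPKM in the U87MG control and 89.6% in the U87MG knockdown, and 96.5% and 97.8% in U251. The calls of SLC2A3 and EPAS1 were both lost with a pseudocount of 5 (adjusted p = 0.12 and 0.080), without the low-value filter (0.42 for each), after trimmed-mean rescaling (0.0689 and 0.0693), without the intensity trend (0.052 and 0.065) and without the block for cell line (0.9998 for each). Both kept their direction under all 8 alternatives.

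**Figure D5:**
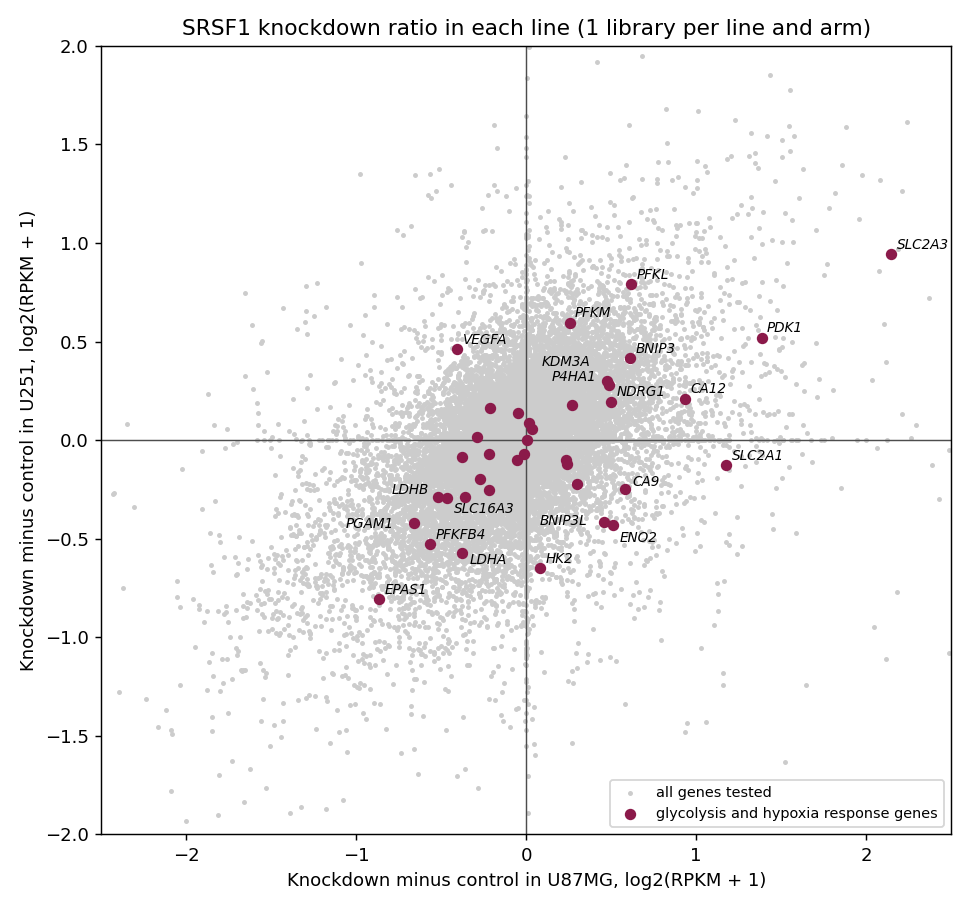
Log2 ratio of knockdown to control in U251 against that in U87MG, on the log2(RPKM + 1) scale, for all genes tested (grey, points beyond the axes not drawn) and for the 38 members (dark red, the larger ones named). SLC2A3 and EPAS1 lie at opposite ends of the diagonal, and most other members lie within 1 log2 unit of no change in both lines.

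In the glycolytic chain several subunits had like ratios in both lines without passing the test over all genes. PFKL went from 7.01 to 11.3 RPKM (U87MG) and, for U251, from 14.4 to 25.6 RPKM (0.70 ± 0.17, adjusted p = 0.062), and PFKM had ratios of 0.25 (U87MG) and 0.60 (U251). PFKP, the most abundant subunit, had ratios of -0.21 (U87MG) and 0.16 (U251). PFKL made up 6.6% and 10.8% of the phosphofructokinase RPKM in U87MG control and knockdown cells and 11.3% and 16.3% in U251. PFKL was called among genes with a mean RPKM of at least 5 (adjusted p = 0.034) and after quantile normalization (0.031).

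On the other side PGAM1 went from 35.7 to 22.2 RPKM (U87MG) and, for U251, from 45.9 to 34.1 RPKM (-0.54 ± 0.17, adjusted p = 0.12). A PGAM1 pseudogene row at a like level, LOC642969, chosen after its values were seen, was at 38.1 and 23.7 RPKM in U87MG and 29.8 and 28.3 RPKM in U251, and 49.2% of the words of PGAM1 recur elsewhere. PFKFB4 had ratios of -0.57 (U87MG) and -0.53 (U251) (-0.55 ± 0.16, adjusted p = 0.11), LDHA of -0.38 (U87MG) and -0.57 (U251) (-0.47 ± 0.16, adjusted p = 0.15) and LDHB of -0.52 (U87MG) and -0.29 (U251) (-0.40 ± 0.14, adjusted p = 0.16). The knockdown libraries of both lines thus lay below their controls for both lactate dehydrogenase subunits. The unadjusted limma p was 0.020 for LDHA and 0.021 for LDHB, and neither passed after adjustment over all genes. HK1, SLC16A3, GAPDH, GPI and PFKFB3 also had ratios below 0 in both lines, between -0.47 and -0.07. SLC16A1, PGK1 and TPI1 had ratios between -0.05 and 0.14, and ALDOA ratios of 0.27 (U87MG) and 0.18 (U251). ENO1 had ratios of -0.29 (U87MG) and 0.02 (U251).

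At the conversion of pyruvate to acetyl-CoA, PDK1, which phosphorylates and inactivates pyruvate dehydrogenase, went from 2.74 to 8.77 RPKM (U87MG) and, for U251, from 3.95 to 6.1 RPKM. By reads the knockdown was at 3.2 times (95% interval 2.83 to 3.63) the control in U87MG and at 1.54 times (95% interval 1.37 to 1.73) in U251, and the estimate of 0.95 ± 0.23 missed the threshold (adjusted p = 0.063). It was called among genes with a mean RPKM of at least 5 (0.049) and after quantile normalization (0.036). PDP1, the phosphatase that reverses this inactivation, rose from 18.9 to 43.5 RPKM and from 11.4 to 19.8 RPKM (0.95 ± 0.18, adjusted p = 0.034). PDK3 stayed between 0.651 and 1.29 RPKM in all libraries, with ratios of -0.01 (U87MG) and -0.07 (U251).

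Of the 11 HIF targets not counted in another class, 5 were above their control in both lines and 2 below. Over all genes tested the shares were 29.3% and 36.5%. None was called. BNIP3 had ratios of 0.61 (U87MG) and 0.42 (U251) (0.51 ± 0.16, adjusted p = 0.13), and its pseudogene row BNIP3P1 was at 18.6 and 22.2 RPKM in U87MG, next to 36.8 and 47.4 RPKM in U251. CA12 had ratios of 0.93 (U87MG) and 0.21 (U251), P4HA1 of 0.49 (U87MG) and 0.28 (U251), KDM3A of 0.47 (U87MG) and 0.30 (U251) and NDRG1 of 0.50 (U87MG) and 0.20 (U251). ADM had ratios of -0.38 (U87MG) and -0.09 (U251) and P4HA2 of -0.06 (U87MG) and -0.10 (U251), both below the control in each line. VEGFA had ratios of -0.41 (U87MG) and 0.46 (U251), CA9 of 0.58 (U87MG) and -0.25 (U251), BNIP3L of 0.46 (U87MG) and -0.41 (U251) and ANKRD37 of 0.24 (U87MG) and -0.12 (U251), with the lines on opposite sides. EGLN3 was level between the arms in each line (0.00 ± 0.19), and EGLN1 had an estimate of 0.07 ± 0.17.

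Other genes of these pathways were taken from 7 lists that leave the members out. Of 97 genes tested, 3 were called higher in the knockdown and none lower, beside 1.16% and 2.61% of all genes tested. They were PDP1 in the pyruvate dehydrogenase list (1 of 10) and HMOX1 and MAFF among other HIF targets (2 of 34). HMOX1, the inducible heme oxygenase, rose from 125 to 315 RPKM (U87MG) and, for U251, from 5.89 to 13.1 RPKM (1.18 ± 0.17, adjusted p = 0.02). MAFF, a small MAF transcription factor, rose from 27 to 54.1 and from 4.04 to 7.37 RPKM (0.86 ± 0.17, adjusted p = 0.04). The other HIF targets had median ratios of 0.23 in U87MG and 0.05 in U251, beside -0.05 and -0.0037 over all genes tested.

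No gene was called in other glycolysis (13 tested), pentose phosphate (8), other glucose and lactate transport (7), gluconeogenesis and glycogen (9) and other HIF pathway regulators (17). PKM, the pyruvate kinase of the last step, was at 897 (control) and 796 (knockdown) RPKM in U87MG, next to 714 and 740.3 for U251. BSG, the chaperone of the lactate transporters, was at 112 (control) and 108 (knockdown) RPKM in U87MG, next to 187 and 181 for U251. TALDO1, the transaldolase of the pentose phosphate pathway, had ratios of 0.39 (U87MG) and 0.40 (U251), and TKT, the transketolase, of 0.20 (U87MG) and 0.12 (U251). GBE1, the glycogen branching enzyme, had ratios of 0.64 (U87MG) and 0.10 (U251), and HSP90AA1, the chaperone that stabilises HIF1A protein, of 0.02 (U87MG) and -0.18 (U251).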

How the data were processed

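Poly(A) RNA of U87MG and U251 cells with a control or an SRSF1 hairpin was sequenced as paired ends, 1 library per line and arm. The values are RPKM per gene, deposited by the authors in 1 table of 40205 genes. The submitters' processing notes name Bowtie 0.12.2 and the build hg19, while the counting program, annotation and strand setting were not given in the sources used here. The labels do not say whether libraries came from separate cultures. Samples were grouped by title, and the arms were paired by cell line.

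The 16098 genes whose RPKM was 1 or more in any library were tested on log2(RPKM + 1) with limma 3.58.1 in R 4.3.3, with cell line and arm as terms, an intensity trend and Benjamini-Hochberg adjustment over all of them, two-sided. The fit has 1 residual degree of freedom, so it leans on the variance shared between genes. Fold changes on this scale understate those of low genes, and ± is the SE of the fit. Whole reads were recovered from the RPKM steps for 27928 of 27973 genes above 0 (99.8%, tolerance 0.01 reads), which gave the library totals and the exact 95% Clopper-Pearson intervals. These cover counting error only. A count model was not run, since depth came from steps of RPKM and not from deposited counts. Shared sequence was the percentage of 31-base words found in other GENCODE 29 genes on GRCh38, including genes that overlap the member. No coordinates were converted between builds. Promoter windows came from RefSeq (GRCh38.p14).

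The text names SRSF1, all members, in each pathway list the genes called in the knockdown and others among the 2 most abundant, and the most abundant copies of members. Some genes of the lists are not reported here by name. The members and lists were chosen with earlier results of these data known. Alternatives were pseudocounts of 0.1 and 5, no filter, a mean RPKM of at least 5, trimmed-mean and quantile scaling, no block, no trend, shares of reads, and each line or arm alone. Without the block, the knockdown comparison dropped the term for cell line and the comparison of lines dropped the term for arm.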

Additional observations from a re-analysis of the deposited data

Results flagged for a closer look

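The differences between the lines given here were not tested, because each line has 1 library per arm. In 10 of the 39 genes the knockdown lay on opposite sides of its control in the lines, with each counting interval clear of no change. Intervals narrow as reads increase, and 13 of 38 members had ratios of opposite sign beside 31.8% of all genes, so opposite signs were about as frequent as in the background. On the log2(RPKM + 1) scale the 10 were, above the control in U87MG and below it in U251, SLC2A1 (1.18 in U87MG and -0.13 in U251), HK2 (0.08 in U87MG and -0.65 in U251) and ENO2 (0.51 in U87MG and -0.43 in U251). To these come HIF1A (0.30 in U87MG and -0.22 in U251), EGLN1 (0.23 in U87MG and -0.10 in U251), CA9 (0.58 in U87MG and -0.25 in U251) and BNIP3L (0.46 in U87MG and -0.41 in U251). Below the control in U87MG and above it in U251 were PFKP (-0.21 in U87MG and 0.16 in U251), TPI1 (-0.05 in U87MG and 0.14 in U251) and VEGFA (-0.41 in U87MG and 0.46 in U251). SLC2A1 and VEGFA stood furthest from no change in U87MG in each direction.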

How the results depend on the processing

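With 1 residual degree of freedom, the knockdown calls depended on the settings, and for none of these shifts was the cause tested. Over all genes limma called 186 higher and 420 lower in the knockdown. The counts were 26 and 52 with a pseudocount of 5, 45 and 50 after trimmed-mean rescaling, 88 and 172 without the trend, and 315 higher after quantile normalization. The share of calls that were higher was 30.7%, against 47.4% after trimmed-mean rescaling and 38.0% after quantile normalization. Without the filter limma called 0 and 0 (1234 and 1890 at an unadjusted p under 0.05). Without the block that pairs the arms by cell line it called 0 and 0 (79 and 183 unadjusted).

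Among members the 1 higher and 1 lower became 0 and 0 with a pseudocount of 5, no filter, trimmed-mean rescaling, no block or no trend (unadjusted 7 and 6, 6 and 5, 9 and 5, 1 and 0, 5 and 4), and the higher count became 3 at a mean RPKM of at least 5 and after quantile normalization. The 3 pathway genes became 0 with a pseudocount of 5, no filter or no block, 1 after trimmed-mean rescaling or without the trend, 5 at a mean RPKM of at least 5 and 6 after quantile normalization. SRSF1 kept its estimate of -2.62 but lost its call without the filter (adjusted p = 0.42) and without the block (0.9998). Members at least 2-fold higher numbered 1 in U87MG with a pseudocount of 5, and in U251 2 with a pseudocount of 0.1 and 1 after quantile normalization.

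Between the lines, 3482 genes were higher and 4347 lower in U87MG, against 1856 and 2430 without the filter. The counts were 2255 and 2536 at a mean RPKM of at least 5, where fewer genes are tested. They were 1960 and 2482 without the arm term, which is the term dropped in this comparison. The members' 16 and 14 became 8 and 9 without the filter and 9 and 9 without the arm term. Beside the genes whose losses are given above, SLC2A1, PFKM, PFKP, ENO1, ENO2 and P4HA2 lost their call without the filter (adjusted p of 0.051 to 0.096). Without the arm term HK1, PFKL, PFKM, PFKP and P4HA2 lost it (0.057 to 0.18). Estimates near 0 for the knockdown changed sign for EGLN3 (-0.000162) and CA9 (-0.000696) with a pseudocount of 5, PFKP (0.0338) after trimmed-mean rescaling, and TPI1 (-0.00373), PDK3 (0.0199) and HIF1A (-0.0450) after quantile normalization. By reads instead of RPKM, LDHA made up 44.5% and 46.9% of its family in U87MG and 3.22% and 2.55% in U251, SLC2A1 46.6%, 31.3%, 97.1% and 92.9%, and CA9 5.77% and 5.43% in U87MG and 99.1% in the U251 knockdown. Each line or arm alone gives a value with no test, and no called member changed direction there.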

Other observations

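Summing the isoforms of each step gave an order of the chain in every library, as values with no test. The sums leave out pseudogene rows, and the order of steps close in level depends on this choice. With their copies LDHA and LDHB came to 611 and 920 RPKM in the U87MG control, ENO1 to 1434 RPKM and TPI1 to 477 RPKM. In U87MG the highest were GAPDH and enolase, with enolase at 1246 and 1044 RPKM in control and knockdown. In U251 they were GAPDH (951 and 797 RPKM) and pyruvate kinase (714 and 740.3 RPKM), with enolase at 633 and 635 RPKM. The lowest were glucose-6-phosphate isomerase, at 33.2, 28.4, 44 and 41.9 RPKM (control and knockdown of U87MG, then of U251), and phosphoglycerate mutase, at 35.7, 22.2, 45.9 and 34.1 RPKM. Hexokinase was above phosphofructokinase in U87MG (145 against 106 RPKM in the control) and below it in U251 (82.2 against 127 RPKM). Lactate dehydrogenase as a whole was at 1216 and 880.2 RPKM in U87MG, next to 511 and 415 RPKM in U251, so the gap in the summed step was far smaller than the gap in LDHA.

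Between the lines, the pyruvate dehydrogenase list had 6 of 10 tested genes lower in U87MG and 1 higher by limma, with a median difference of -0.71 beside -0.07 over all genes tested. The pentose phosphate list had 4 of 8 higher in U87MG and 2 lower, with a median of 0.43. Among other HIF targets 10 were higher and 13 lower of 34. Over all genes tested 21.6% were higher and 27% lower, so both shares among the other HIF targets were above the background. The excess was not tested.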
